A study of Mus musculus with 6 samples.

Results

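Prostanoids are short-lived lipid messengers made from arachidonic acid, and they act on neighbouring cells through a family of G protein-coupled receptors at the cell surface. The receptor genes were taken by symbol from the count table of whole epididymis: Ptger1, Ptger2, Ptger3 and Ptger4 for the prostaglandin E2 receptors EP1 to EP4, Ptgdr and Ptgdr2 for the prostaglandin D2 receptors, Ptgfr for the prostaglandin F2α receptor, Ptgir for the prostacyclin receptor and Tbxa2r for the thromboxane A2 receptor. All 9 genes were found among the 57127 genes listed, 7 had enough counts to be tested among the 19691 genes tested, and 2 did not. Adult wild-type mice (WT) and adult mice with the genotype Ocln-/- (Ocln-KO), both recorded as C57BL/6, were compared, with 3 libraries of each genotype and 6 in all. Ocln encodes occludin, a tight junction protein. The Ocln-KO males came from heterozygous pairings, no driver that limits the deletion to a cell type is named, and the ages of these mice were not given beyond adult. The study names 3 pairs of WT and Ocln-KO mice, without saying which libraries form a pair, and speaks both of separate extractions and of pooled RNA, so n counts libraries, and p-values measure the spread between these libraries, which may be partly technical.

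The receptors differ in the G protein they engage. EP2, EP4, the prostacyclin receptor and the D2 receptor encoded by Ptgdr couple to Gs and raise cyclic AMP; EP1, the F2α receptor and the thromboxane receptor act through Gq and calcium; EP3 and the D2 receptor encoded by Ptgdr2 couple to Gi and lower cyclic AMP. In the epididymis, prostaglandins are known to act on the contraction of the duct wall and on ion and fluid secretion by the epithelium. The comparison asks whether the mRNA of any receptor differed when Ocln was deleted, beside the mRNA of the enzymes that make and break down their ligands.

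Values are CPM (the count divided by the library's total in units of 1e+06 counts) scaled with TMM factors, and 1 count equals between 0.0267 and 0.0314 CPM in libraries of 30646424 to 38870780 counts. Ocln, the targeted gene, was at 85.8, 78.7 and 91.7 CPM in WT and at 15.1, 15.3 and 14.9 CPM in Ocln-KO, which fits the genotype labels, and the log2 ratio of Ocln-KO to WT (the log2 fold change) was -2.50, with a standard error (SE) of 0.094 (adjusted p = 0.000108 in edgeR). Of 10 epididymal markers, the abundant genes Crisp1, Lcn5, Adam7 and Spink11 were present in every library, but Lcn9, Adam28, Rnase10 and Cst11 had at most 20 counts in any library, and Gpx5 ran from 978 to 5863 counts in WT and from 8221 to 339223 in Ocln-KO. Ocln-KO replicate 3 stood apart from the other libraries, at 86.3 on the first principal component of log2 CPM against 17.7 and 29.1 for the other Ocln-KO libraries and -52.8 to -37 for WT. Results that rest on it are given with and without it.

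No prostanoid receptor gene passed the test between the genotypes. In the quasi-likelihood F test of edgeR, adjusted after Benjamini and Hochberg, 0 of the 7 tested receptor genes had an adjusted p under 0.05, where 8.95% of all tested genes did, 3.91% higher and 5.04% lower in Ocln-KO. None had an unadjusted p under 0.05 either, against 29.1% of all genes. DESeq2 called 0 and limma-voom called 0 at an adjusted p under 0.05, with 0 and 1 (Ptger2) at an unadjusted p under 0.05. The thresholds of the study's methods, a fold change over 2 or under 0.5 with an adjusted p under 0.05, were met by 3.19% of all tested genes, 1.49% higher and 1.7% lower, and by no receptor gene. The median log2 ratio of the 7 genes was 0.038, and that of all tested genes was 0.0081. Scaled by total counts alone, all tested genes split into 1175 higher and 674 lower, against 770 and 992, and still 0 receptor genes passed. The smallest adjusted p among the receptors was 0.214, for Ptger2, so that a miss of the threshold has to be read with the interval of each difference, which was narrowest for Ptger4.

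**Figure D1:**
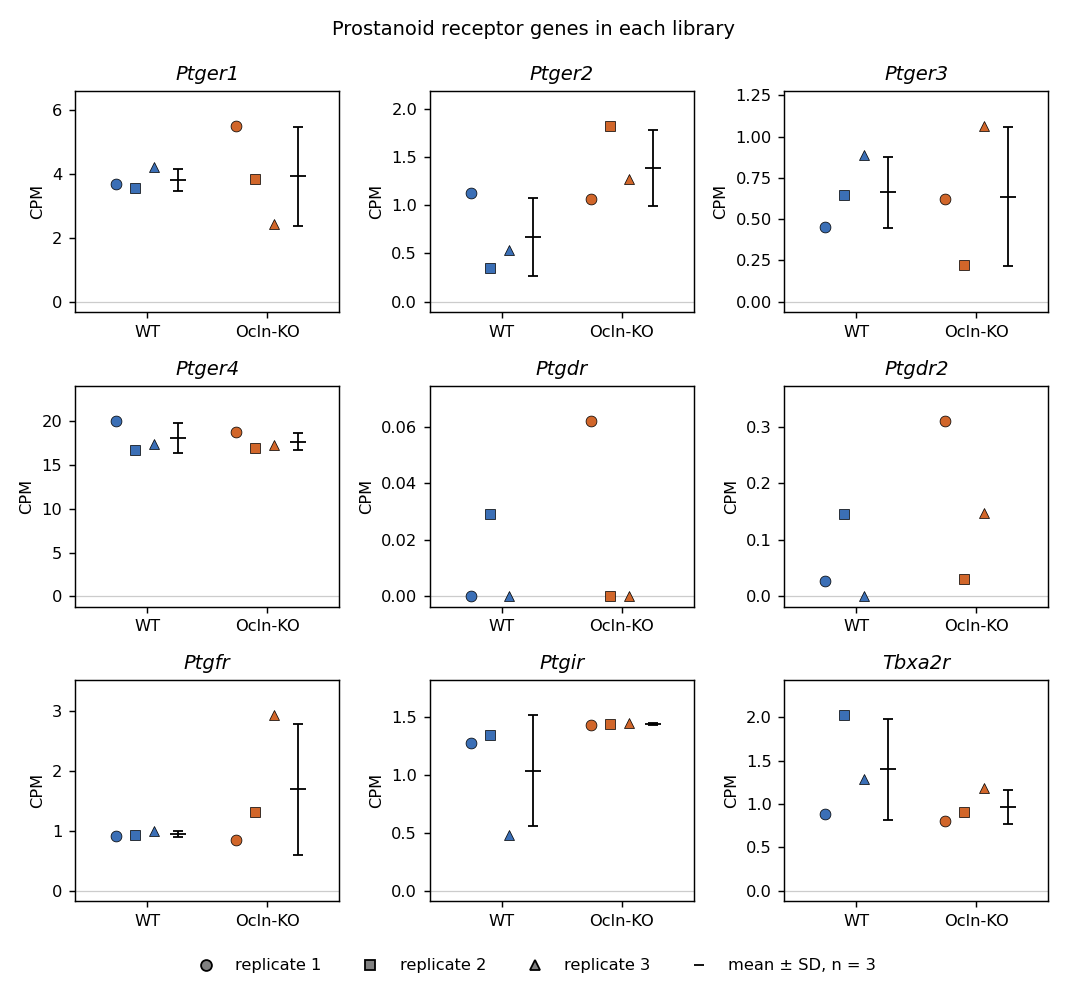
Level of each of the 9 prostanoid receptor genes in CPM (linear axes that differ between panels) in the 3 WT and the 3 Ocln-KO libraries, with a marker for each replicate number and the mean ± SD (n = 3) beside each group; no mean is drawn for Ptgdr and Ptgdr2, which had too few counts to be tested. Ptger4 lay between 16.8 and 20.1 CPM in all 6 libraries, Ptgfr was high in Ocln-KO replicate 3, and the genotypes overlapped for every gene except Ptgir.

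Ptger4 carried most of the receptor mRNA. It encodes EP4, a Gs-coupled receptor for prostaglandin E2, and lies on chromosome 15 from 5206661 to 5244187 (GRCm38, GENCODE M21, minus strand). It was at 20.1, 16.8 and 17.4 CPM in WT and at 18.8, 17 and 17.3 CPM in Ocln-KO. The ranges overlapped almost entirely, and the largest of the 6 values was a WT library. The log2 ratio was -0.034 (SE 0.12, adjusted p = 0.882 in edgeR), and its 95% interval ran from -0.31 to 0.24, so that these libraries leave room for a level between 0.807 and 1.18 times that of WT. Among 16355 other genes with a mean of at least 1 CPM, those nearest to Ptger4 in log2 CPM over the 6 libraries were Cnep1r1, Ogfrl1 and Mtfr1. Their root mean square differences were 0.0332, 0.0354 and 0.0361 after each gene was centred on its own mean. Because Ptger4 varied little, other steady genes come near it by this measure, which therefore cannot show that they vary together.

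To set the receptors against each other, levels were divided by the exon length of each gene in GENCODE M21. On this per-length scale Ptger4 was at 2.72 ± 0.264 CPM per kilobase in WT and 2.66 ± 0.145 in Ocln-KO (SD, n = 3 each). It held between 50.3% and 60.7% of the summed per-length level of the 9 receptor genes in each library. The sum itself was 4.87 ± 0.22 CPM per kilobase in WT and 5.01 ± 0.248 in Ocln-KO (SD, n = 3 each). The PGE2 receptors together made up 75.4% ± 7.36 of it in WT and 74.9% ± 5 in Ocln-KO (SD, n = 3 each). By coupling, the Gs-coupled receptors held 59.9% to 72.7%, the Gq-coupled receptors 25.5% to 36.8% and the Gi-coupled receptors 1.06% to 4.85% over the 6 libraries. The ranges of the genotypes overlapped for each coupling class. With the length of the longest transcript in place of all exons, the mean share of Ptger4 over the libraries was 65.3% rather than 54.5%.

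**Figure D2:**
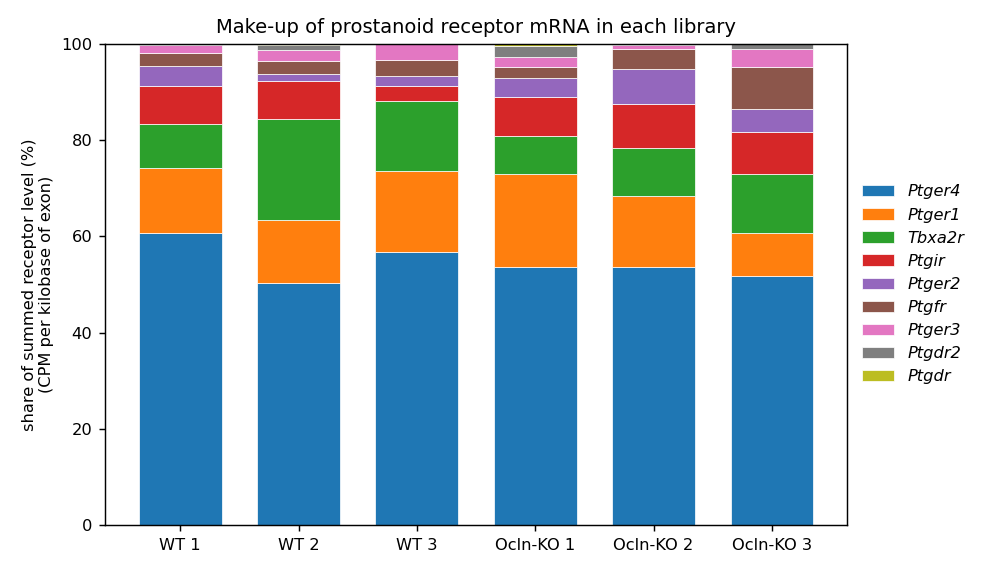
Share of each receptor gene in the summed prostanoid receptor level of each library, in percent of CPM per kilobase of exon, with 1 stacked bar for each of the 6 libraries. Ptger4 is the largest part of every bar, between 50.3% and 60.7%, and Ptgdr and Ptgdr2 are barely visible.

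After Ptger4, the order of levels per kilobase in WT was Tbxa2r at 0.728 ± 0.301, Ptger1 at 0.701 ± 0.0637, Ptgir at 0.311 ± 0.144, Ptgfr at 0.14 ± 0.00656, Ptger2 at 0.129 ± 0.0774, Ptger3 at 0.116 ± 0.0382, Ptgdr2 at 0.0218 ± 0.0295 and Ptgdr at 0.00306 ± 0.0053 CPM per kilobase (SD, n = 3 each). Ptger4 lay above the next gene in every WT library without overlap. Ptger1 also lay above Ptgir and Ptger3 above Ptgdr2 without overlap. Tbxa2r and Ptger1 overlapped, and so did the run from Ptgir through Ptgfr and Ptger2 to Ptger3, each with its neighbour. In Ocln-KO the order after Ptger4 was Ptger1, Tbxa2r, Ptgir, Ptger2, Ptgfr, Ptger3, Ptgdr2 and Ptgdr, and neighbours overlapped there too, except Ptger4 with Ptger1 and Ptgir with Ptger2. The exon models that the authors counted on were not stated, which limits any comparison between genes.

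Of the other receptors for prostaglandin E2, Ptger2 had the largest fitted log2 ratio among the 7 tested genes with all libraries, though Ptgfr exceeded it when WT replicate 2 (0.83 against 0.73) or Ocln-KO replicate 2 (0.99 against 0.79) was left out. It encodes EP2, the second Gs-coupled E2 receptor (chromosome 14, 44988195 to 45003820, plus strand). It was at 1.12, 0.351 and 0.538 CPM in WT, from 42, 12 and 20 counts, and at 1.06, 1.82 and 1.27 CPM in Ocln-KO, from 34, 58 and 43 counts. WT replicate 1 lay within the Ocln-KO range and the other 2 WT libraries lay below it. The log2 ratio was 1.04 (SE 0.50, adjusted p = 0.214 in edgeR), with a 95% interval from -0.12 to 2.20. Leaving out each library in turn moved the log2 ratio between 0.73 and 1.62; the highest value came without WT replicate 1, at an adjusted p of 0.153 and an unadjusted p of 0.0154. EP2 is found on phagocytes among other cells, and the 8 phagocyte markers summed to 163 to 198 CPM in WT and 205 to 379 CPM in Ocln-KO, with all 8 fitted above 0 and 0 of 8 passing the test. That sum was highest in Ocln-KO replicate 3 and Ptger2 in Ocln-KO replicate 2, and the part of these cells in the Ptger2 values was not tested. In whole tissue, more or fewer cells of a type cannot be told apart from more or less RNA per cell.

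Ptger1 encodes EP1, the Gq-coupled E2 receptor (chromosome 8, 83666678 to 83672753, plus strand). It was at 3.69, 3.57 and 4.22 CPM in WT and at 5.51, 3.86 and 2.42 CPM in Ocln-KO. The Ocln-KO libraries spanned the WT range on either side, with replicate 1 above it and replicate 3 below it, and the SD was 1.55 CPM in Ocln-KO against 0.348 CPM in WT. The log2 ratio of 0.038 (SE 0.31, 95% interval -0.68 to 0.76, adjusted p = 0.951, edgeR) became 0.29 when Ocln-KO replicate 3 was left out and -0.28 when replicate 1 was. The libraries were directional, but the strand setting of the count was not stated, so that the count of Ptger1 may include antisense reads and is uncertain.

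Ptger3 encodes EP3, the Gi-coupled E2 receptor (chromosome 3, 157566892 to 157645888, plus strand). Its counts were 17, 22 and 33 in WT and 20, 7 and 36 in Ocln-KO, or 0.454, 0.644 and 0.888 CPM and 0.623, 0.22 and 1.06 CPM. Both the lowest and the highest value were Ocln-KO libraries. With a log2 ratio of -0.055 and a 95% interval from -1.44 to 1.33 (adjusted p = 0.963, edgeR), a difference of more than 2-fold in either direction was not excluded at this depth. Leaving out Ocln-KO replicate 3 gave a log2 ratio of -0.65, and leaving out replicate 2 gave 0.35.

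The enzymes upstream of the E2 receptors did not move as a group. Prostaglandin synthesis starts with the cyclooxygenases, of which Ptgs1 is the constitutive and Ptgs2 the inducible form, and Ptges encodes the inducible prostaglandin E synthase. Ptgs1 was at 186, 176 and 179 CPM in WT and at 266, 215 and 151 CPM in Ocln-KO, a log2 ratio of 0.22 (adjusted p = 0.466 in edgeR). Without Ocln-KO replicate 3 that ratio was 0.41 (adjusted p = 0.0524, edgeR). The order of the Ocln-KO libraries for Ptgs1, with replicate 1 highest and replicate 3 lowest, was that of Ptger1 and also that of Ptges. A link between these genes was not tested. Ptgs2 was at 10.2, 10.6 and 9.44 CPM in WT. It rose to 16.5, 18.6 and 19.5 CPM in Ocln-KO, without overlap, as in 36.3% of all tested genes. The rise was 0.85 on the log2 scale (SE 0.13, adjusted p = 0.0164, edgeR). Ptges was at 178, 161 and 228 CPM in WT and at 198, 172 and 144 CPM in Ocln-KO, with overlapping ranges and a log2 ratio of -0.14 (adjusted p = 0.6, edgeR). Per kilobase of exon, Ptges was at 48.1 ± 8.81 CPM in WT (SD, n = 3), above the sum of all 9 receptor genes in each library.

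The prostaglandin D2 branch combined an abundant synthase with receptors near the limit of detection. Ptgds encodes the lipocalin-type prostaglandin D synthase and had 427 ± 41.9 CPM per kilobase in WT and 162 ± 56 in Ocln-KO (SD, n = 3 each), a fall of the log2 level by 1.40 (SE 0.23, adjusted p = 0.0201 in edgeR). Ptgdr, on chromosome 14 from 44851235 to 44859375 (minus strand), had 0, 1 and 0 counts in WT and 2, 0 and 0 in Ocln-KO. Each value was at or under 3 counts, or 0.0801 to 0.0941 CPM, so no fold is given. Ptgdr2, which marks type 2 helper T cells, eosinophils and basophils, lies on chromosome 19 from 10937160 to 10942511 (plus strand) and had 1, 5 and 0 counts in WT and 10, 1 and 5 in Ocln-KO. The genotypes overlapped, and exact Poisson 95% intervals of 1.62 to 11.7 for 5 counts and 4.8 to 18.4 for 10 counts overlap as well; such intervals cover counting error only. Neither gene passed the count filter.

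The low values of the D2 receptors are values of the table and not proof of absence. Of the exon bases of Ptgdr2, 39% are shared with Ccdc86 on the opposite strand, and of those of Ptgdr, 22.1% with a pseudogene, so that most of each gene was free of overlap. An older symbol of Ptgdr2, Gpr44, has a row of its own with 0 counts in all 6 libraries. Arrb2, a broadly expressed arrestin gene, had at most 0.533 CPM in any library, so that a low value in this table need not mean a low transcript level; the cause was not tested. Hpgds, which encodes the hematopoietic D synthase of mast cells and other leukocytes, was at 1.58, 2.49 and 1.96 CPM in WT and at 3.24, 3.83 and 5.17 CPM in Ocln-KO. The groups did not overlap, as in 36.3% of all tested genes, and the log2 ratio was 1.02 (SE 0.29, adjusted p = 0.068, edgeR). Markers of mast cells and basophils summed to 1.02 to 1.5 CPM in WT and 2.9 to 6.55 CPM in Ocln-KO. Among 3 tested of 7, Cpa3 and Cma1 were higher, beside 3.91% of all tested genes. The mast cell sum was lowest of the Ocln-KO libraries in replicate 3, where Hpgds was highest. Markers of mononuclear phagocytes and of T and B lymphocytes were, like Hpgds, highest in that library, at summed levels of 379 and 9.17 CPM. The part of any of these cells in the Hpgds values was not tested.

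For prostaglandin F2α, a single Ocln-KO library set the size of the receptor difference. Ptgfr encodes the Gq-coupled F2α receptor, known for contraction of smooth muscle (chromosome 3, 151796502 to 151837630, minus strand). It was at 0.908, 0.937 and 0.995 CPM in WT and at 0.841, 1.32 and 2.93 CPM in Ocln-KO. Ocln-KO replicate 1 lay below all WT libraries, and replicates 2 and 3 lay above them. The 99 counts of that library, with an exact Poisson 95% interval of 80.5 to 121, are above what counting error gives for 27 and 42 counts in the other Ocln-KO libraries. The log2 ratio was 0.84 (SE 0.48, 95% interval -0.28 to 1.96, adjusted p = 0.293 in edgeR) and 0.19 without Ocln-KO replicate 3 (adjusted p = 0.815, edgeR). The 6 fibroblast markers summed to 5454 CPM in that library and to 1959 and 2713 CPM in the other Ocln-KO libraries, against 2494 to 2742 CPM in WT. The 8 smooth muscle markers summed to 1240 to 1497 CPM in WT and 1683 to 2262 CPM in Ocln-KO, where replicate 3 was not the highest. Of these 8, 2 rose (Myh11 and Actg2), beside 3.91% of all tested genes. The part of fibroblasts and smooth muscle in the Ptgfr values was not tested.

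Among the enzymes that can form prostaglandin F2α, genes changed in opposite directions. Akr1b7, an aldo-keto reductase with prostaglandin F synthase activity, rose from 33.5, 32 and 54.7 CPM in WT to 115, 111 and 156 CPM in Ocln-KO, a log2 ratio of 1.67 (SE 0.23, adjusted p = 0.0137 in edgeR). Cbr1, a carbonyl reductase that can turn E2 into F2α, fell from 80.6, 79.5 and 94.5 CPM to 39.5, 58.6 and 44.6 CPM, a log2 ratio of -0.84 (SE 0.15, adjusted p = 0.0245, edgeR). Akr1b3 and Fam213b, the remaining enzymes of this kind on the list, had log2 ratios of -0.22 and -0.040 (adjusted p = 0.337 and 0.921, edgeR). Reads of Akr1b7 may be shared with close paralogs, which makes its level uncertain.

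Ptgir was the only receptor gene whose genotypes did not overlap, where 36.3% of all tested genes showed no overlap. It encodes the Gs-coupled prostacyclin receptor of smooth muscle and platelets (chromosome 7, 16906490 to 16910905, plus strand). It was at 1.28, 1.35 and 0.484 CPM in WT and at 1.43, 1.44 and 1.45 CPM in Ocln-KO. WT replicates 1 and 2 were just under the Ocln-KO values and WT replicate 3, with 18 counts, was far under them. The log2 ratio of 0.47 (SE 0.43, 95% interval -0.53 to 1.48, adjusted p = 0.513 in edgeR) was 0.14 without WT replicate 3. The exact Poisson 95% interval of 46 counts runs from 33.7 to 61.4, far wider than the gap between the 46, 46 and 49 counts of the Ocln-KO libraries, so the small SD of 0.00819 CPM is no measure of precision. Ptgis, the prostacyclin synthase gene, was at 23.5, 20.3 and 23.9 CPM in WT and at 21.6, 28.3 and 24 CPM in Ocln-KO, with a log2 ratio of 0.12 (adjusted p = 0.579, edgeR).

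Tbxa2r encodes the Gq-coupled thromboxane receptor of platelets and smooth muscle (chromosome 10, 81328731 to 81335172, plus strand). It was at 0.881, 2.02 and 1.29 CPM in WT and at 0.81, 0.909 and 1.18 CPM in Ocln-KO. The highest value was WT replicate 2, with 69 counts, and the lowest WT library lay among the Ocln-KO libraries. It had the most negative fitted difference of the tested receptors, a log2 ratio of -0.53 (SE 0.41, 95% interval -1.48 to 0.42, adjusted p = 0.441 in edgeR), which was -0.17 without WT replicate 2. Tbxas1, the thromboxane synthase gene, was at 4.09, 3.72 and 3.69 CPM in WT and at 5.33, 4.36 and 6.74 CPM in Ocln-KO. The ranges of Tbxas1 did not overlap, as in 36.3% of all tested genes, and its log2 ratio of 0.52 did not pass (adjusted p = 0.174, edgeR). Of the 5 platelet markers, Pf4, Ppbp and Gp1bb were at 0 counts in all libraries and Itga2b was at 20.8 to 30.3 CPM with overlapping genotypes. Gp9 was at 4.81, 2.87 and 5.95 CPM in WT and at 2.87, 1.6 and 0.0296 CPM in Ocln-KO. These Gp9 values did not overlap before rounding, as in 36.3% of all tested genes (log2 ratio -1.60, adjusted p = 0.282, edgeR). In WT replicate 2 and in Ocln-KO replicate 3, Gp9 was lowest and Tbxa2r highest of their genotype. With Pf4, Ppbp and Gp1bb at 0 counts, Gp9 alone does not show how many platelets a library held. The part of platelets in the Tbxa2r values was not tested.

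**Figure D3:**
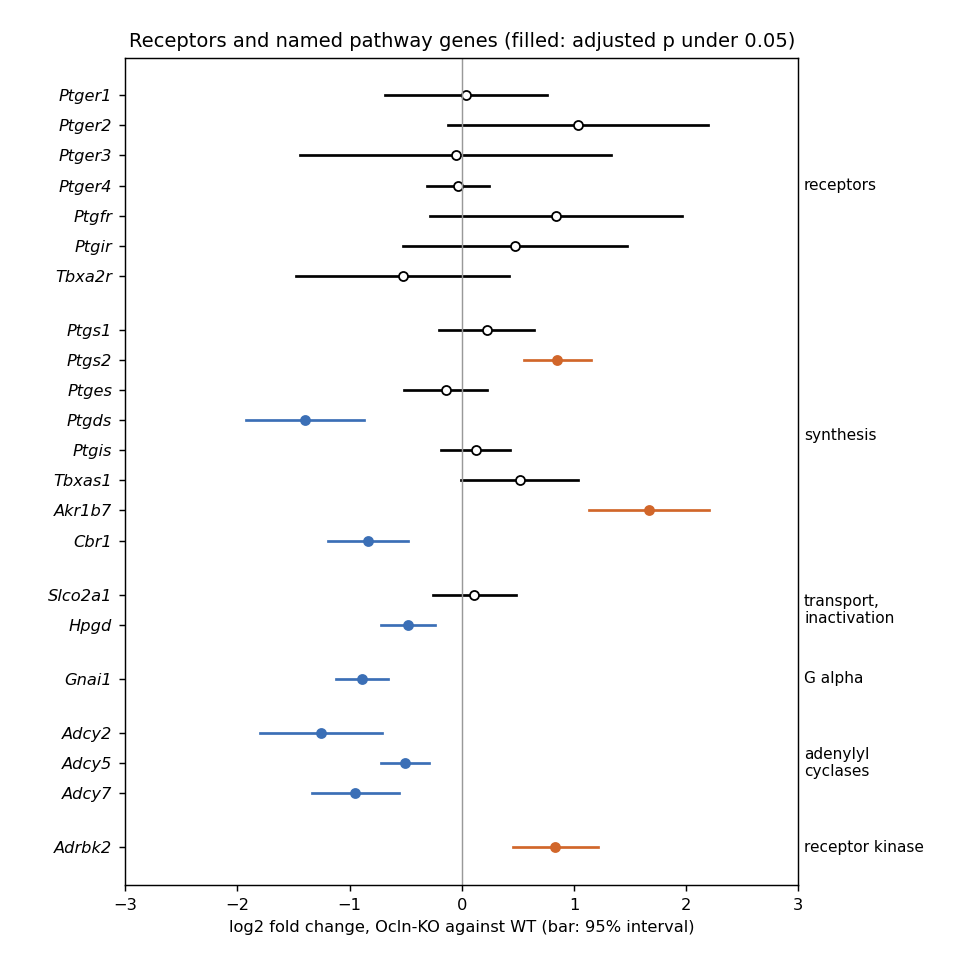
Log2 ratios of the 7 tested receptor genes and of 15 named genes of the pathway, Ocln-KO against WT, each with its 95% interval as a bar; filled points had an adjusted p under 0.05 in edgeR (orange higher, blue lower in Ocln-KO) and open points did not. The 7 receptor intervals all include 0, and the interval of Ptger4, from -0.31 to 0.24, is the narrowest of them.

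Of 50 tested genes of the surrounding pathway, 10 passed the test, 3 higher and 7 lower in Ocln-KO, beside 3.91% and 5.04% of all tested genes. The tested receptor genes other than Ptger4 had at most 5.51 CPM in any library, and of these 10 genes only Adcy2 was as low. With 8.95% of all tested genes called, 0 of 7 receptor genes does not set the receptors apart from the pathway. Of the 13 synthesis genes, 2 rose (Ptgs2, Akr1b7) and 2 fell (Ptgds, Cbr1), with a median log2 ratio of 0.071. Of the 5 genes of transport and inactivation, Hpgd fell and the other 4 did not pass. Hpgd encodes the dehydrogenase that inactivates E2 and F2α inside cells, and went from 105, 95.3 and 101 CPM in WT to 81.8, 66 and 68.7 CPM in Ocln-KO, a log2 ratio of -0.48 (SE 0.10, adjusted p = 0.0359 in edgeR). Scaled by total counts alone, its adjusted p was 0.0648. Slco2a1, the uptake carrier that brings prostaglandins to this enzyme, was at 35.3, 35.8 and 40.7 CPM in WT and at 36.7, 33.6 and 50.6 CPM in Ocln-KO. Its log2 ratio was 0.11 (adjusted p = 0.68, edgeR), and -0.086 without Ocln-KO replicate 3 (adjusted p = 0.684, edgeR).

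Downstream of the receptors, 1 of 8 genes for G protein alpha subunits fell and none rose, beside 5.04% and 3.91% of all tested genes. The gene that fell was Gnai1, an inhibitory subunit of the kind that EP3 engages. It went from 201, 174 and 180 CPM in WT to 104, 105 and 90.3 CPM in Ocln-KO. The log2 ratio was -0.89 (SE 0.10, adjusted p = 0.00863 in edgeR). The related Gnai2 and Gnai3 had log2 ratios near 0, at -0.0042 and 0.11 (adjusted p = 0.982 and 0.577, edgeR). Gnas, the stimulatory subunit used by EP2, EP4 and the prostacyclin receptor, was at 748 to 946 CPM in Ocln-KO and 1061 to 1108 CPM in WT. These ranges did not overlap, as in 36.3% of all tested genes, and Gnas did not pass (log2 ratio -0.36, adjusted p = 0.0828, edgeR).

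Adenylyl cyclases make cyclic AMP on the signal of Gs. Of the 14 genes for cyclases and phospholipases C beta, 3 fell, all of them cyclases, beside 5.04% of all tested genes. Adcy7 went from 161, 160 and 204 CPM in WT to 100.2, 102 and 69.8 CPM in Ocln-KO, Adcy5 from 54.9, 48.1 and 54 to 35, 38.3 and 37.5 CPM, and Adcy2 from 4.75, 4.98 and 5.06 to 2.49, 1.72 and 1.98 CPM. The genotypes did not overlap for any of the 3 genes, beside 36.3% of all tested genes without overlap. Their log2 ratios were -0.95, -0.50 and -1.25 (adjusted p = 0.0228, 0.0241 and 0.0255 in edgeR). Adcy8, a calcium-stimulated cyclase, was at 198 to 211 CPM in WT and 197 to 231 CPM in Ocln-KO (log2 ratio 0.10, adjusted p = 0.512, edgeR). Of 7 tested genes for receptor kinases, arrestins and Ptgfrn, 1 rose, beside 3.91% of all tested genes. It was Adrbk2, a kinase that marks active receptors for arrestin. Its level went from 13.1, 13.2 and 15.1 to 25.9, 19.3 and 28.7 CPM (log2 ratio 0.83, adjusted p = 0.0281, edgeR). The nuclear receptor genes Ppara, Ppard and Pparg, whose proteins bind prostanoid metabolites, had log2 ratios of 0.090, -0.35 and -0.14, and none passed.

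Leaving out 1 library ended many of the pathway calls, while the log2 ratios of all 10 genes kept their direction in each of these 6 fits, at 0.80 to 0.92 for Ptgs2, -1.71 to -1.21 for Ptgds, -0.94 to -0.83 for Gnai1 and -0.56 to -0.46 for Adcy5. When WT replicate 1, 2 or 3 was left out, 10, 9 or 9 of the 10 called genes had an adjusted p of 0.05 or above, with Gnai1 still under it without WT replicate 2 and Akr1b7 without WT replicate 3. Without Ocln-KO replicate 2, 3 were lost (Hpgd, Adcy2 and Adcy5). In the whole table the calls fell from 770 higher and 992 lower to 4 and 19 without WT replicate 1. Without Ocln-KO replicate 3 none of the 10 was lost.

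**Figure D4:**
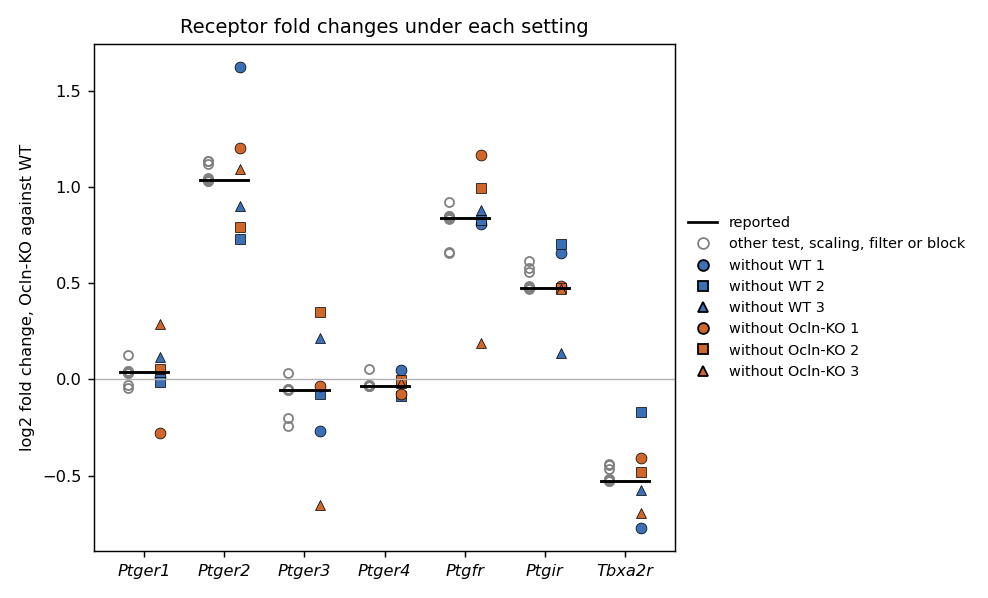
Log2 ratio of each tested receptor gene, Ocln-KO against WT, as reported (black line), under other tests, scalings, count filters or the replicate block (grey circles), and with 1 library left out (blue for WT, orange for Ocln-KO, marker by replicate number). Ptgfr drops from 0.84 to 0.19 without Ocln-KO replicate 3, Ptger2 reaches 1.62 without WT replicate 1, and Ptger4 stays between -0.087 and 0.052.

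Cell type markers were read from 14 lists beside these values. In 8 of them no gene passed the test: endothelium, fibroblasts, mononuclear phagocytes, neutrophils, T and B lymphocytes, platelets, spermatids and sperm, and adipocytes. Some of their sums still moved. Lymphocyte markers summed to 2.51 to 3.04 CPM in WT and 4.76 to 9.17 CPM in Ocln-KO. Adipocyte markers summed to 4.92 to 9.05 CPM in WT and 0.591 to 3.55 CPM in Ocln-KO. The genotypes did not overlap for 4 of these 5 genes, beside 36.3% of all tested genes. Sperm markers summed to 64.2 CPM in Ocln-KO replicate 3 and to 189 to 270 CPM in the other libraries. Clear cell markers fell in 4 of 6 tested (Atp6v1b1, Atp6v0d2, Atp6v0a4 and Foxi1), beside 5.04% of all tested genes. The list summed to 188 to 267 CPM in WT and 58.8 to 105 CPM in Ocln-KO. Much of these sums was Car2, which did not pass (adjusted p = 0.127, edgeR). Car2 was at 137, 98.4 and 161 CPM in WT and at 46.3, 62.7 and 5.88 CPM in Ocln-KO. Rises were seen in 2 of 8 smooth muscle genes, 2 of 3 mast cell genes, 1 of 7 basal cell genes (Krt14), 1 of 6 epididymal genes (Gpx5) and 1 of 5 cortical genes (Mbp). Of all tested genes, 3.91% rose at the same threshold. A protocol of the sample records names prefrontal cortex, but the cortical markers summed to 21.5 to 29.2 CPM, with Neurod6 at 0 counts, against 19288 to 34033 CPM for the epididymal markers.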

How the data were processed

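Whole-epididymis RNA of WT and Ocln-KO mice was depleted of rRNA, made into directional libraries and sequenced as paired ends. The authors aligned reads to GRCm38 (HISAT2 2.0.4 per the submitters' processing notes) and deposited the raw count of each gene by HTSeq, whose mode and strand setting are not given in the sources used here. Columns were matched to samples by title, with 0 unmatched. Of the symbols, 27 had become dates, 1 a number, and 2 were repeated.

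The model was fitted with edgeR 4.0.16 (R 4.3.3) using filterByExpr, TMM factors, glmQLFit and glmQLFTest over all genes, with Benjamini-Hochberg adjustment. SE was taken as the log2 ratio over the root of the F statistic, and 95% intervals use the fitted degrees of freedom. Alternatives were DESeq2 1.42.0, limma-voom (limma 3.58.1), RLE factors, total counts, TMM without the 20 most abundant genes, no filter, a minimum of 10 counts per library, a block for replicate number and each library left out. The fits were tested on simulated data. Exon lengths, positions and overlaps came from GENCODE M21, which is on GRCm38 as the alignment is.

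All 9 receptor genes are named. Genes of 6 pathway lists are named where the adjusted p was under 0.05, as are Ptgs1, Ptgs2, Ptges, Ptgds, Ptgis, Tbxas1, Hpgd and Slco2a1; Hpgds, Akr1b3, Fam213b, Gnai2, Gnai3, Gnas, Adcy8, Arrb2, the nuclear receptor genes and Gpr44 were added after their values were seen. The members and lists were chosen with earlier results of these data known. An exact permutation test of 3 against 3 libraries cannot go below p = 0.10, so none is printed. Protein sequences, the proteomes and the lipid data are not analysed here.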

Additional observations from a re-analysis of the deposited data

How the results depend on the processing

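None of the 7 tested receptor genes had an adjusted p under 0.05 or was past the DEG thresholds under any of the 14 alternatives (13 for Ptger3). Ptgdr and Ptgdr2 were fitted only with no count filter, at log2 ratios of 0.89 and 1.47 (adjusted p = 0.82 and 0.603, edgeR). Ptger2, Ptgfr and Ptgir stayed higher and Tbxa2r lower in Ocln-KO under all 14. The sign of the 3 differences nearest to 0 turned: Ptger1 was -0.046 with limma-voom and -0.028 with the replicate block, and with total counts only Ptger3 was 0.033 and Ptger4 0.052. With libraries left out in turn, Ptger1 ran from -0.28 to 0.29, Ptger3 from -0.65 to 0.35, Ptger4 from -0.087 to 0.047, Ptges from -0.25 to 0.016 and Slco2a1 from -0.086 to 0.23 (log2 fold changes). Ptger3 gave no value with at least 10 counts in every library. With the longest transcript as length, the mean shares of Ptger4 and Ptgir were 65.3% and 5.14%, against 54.5% and 7.47%.

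For the pathway lists, the replicate block left 1 synthesis gene higher and 0 lower, and 0 genes called in the lists of transport, G proteins, cyclases and receptor kinases; total counts left 0 transport genes lower and added 1 phospholipase or cyclase gene higher, and DESeq2 gave 2 G protein genes lower and 1 cyclase or phospholipase gene higher. With libraries left out, synthesis genes ran from 0 to 2 higher and 0 to 2 lower, transport genes from 0 to 1 lower, G protein genes from 0 to 1 lower, cyclases from 0 to 4 lower and receptor kinases from 0 to 1 higher. The causes were not tested. Same-numbered libraries did not deviate together (correlations of -0.0525, -0.0315 and -0.00256), and none correlated best with its own number, so the numbers were not taken as the 3 pairs of mice that the study names. With the replicate block, 9 of the 10 pathway genes had an adjusted p of 0.05 or above and Akr1b7 had 0.0299 (edgeR), and the block left 10 genes higher and 31 lower in the whole table, against 770 and 992. DESeq2 called 1604 higher and 1708 lower. Without WT replicate 1, 2 or 3, 4, 85 or 16 genes were higher and 19, 145 or 40 lower, and without Ocln-KO replicate 2, 220 and 342.

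With 7 to 99 counts per library for Ptger2, Ptger3, Ptgfr, Ptgir and Tbxa2r, counting error and 3 libraries a genotype leave wide intervals, and a 2-fold difference lay inside the 95% interval of Ptger2, Ptger3, Ptgfr, Ptgir and Tbxa2r.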
